A study of Mus musculus with 8 samples.

Results

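The MCM helicase and replication genes described here were Mcm2, Mcm3, Mcm4, Mcm5, Mcm6, Mcm7, Mcm10, Pcna, Rrm1 and Rrm2, taken by name as a fixed list. All 10 had a row among the 12404 genes of the count table, and all 10 were among the 8645 genes with enough reads to be tested. The cells were TM3, an established line with the Leydig cell type of the mouse testis. The study compared cells exposed to bisphenol A (BPA), a plasticizer with endocrine activity, with normal TM3 cells. Messenger RNA of both was sequenced directly (RNA-seq) and after immunoprecipitation (IP) of fragments carrying N6-methyladenosine (m6A), a modified base of mRNA (MeRIP-seq). The 8 libraries formed 4 groups of 2, which were RNA-seq and MeRIP of BPA-exposed and of normal cells. The sources used here give neither the dose and length of the exposure nor any vehicle for the normal cells. The labels do not say whether the 2 libraries of a group came from separate cultures. If they did not, the spread behind each p-value is technical.

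The MCM proteins drive the opening of DNA at replication forks. Mcm2 to Mcm7 assemble into a ring that is loaded on origins before S phase and becomes the motor of the replicative helicase once Cdc45 and the GINS complex join it. Mcm10 acts in activating that helicase, Pcna is the sliding clamp that holds polymerases on DNA, and Rrm1 and Rrm2 are the large and small subunits of ribonucleotide reductase, which makes deoxynucleotides. Transcription of many such genes is known to be raised at the entry into S phase by E2F factors, which the retinoblastoma protein Rb1 restrains.

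The RNA-seq libraries held between 6305121 and 10455643 reads, and between 2207 and 4676 of the 12404 genes had 0 reads in a library. The BPA libraries had more genes at 0 (4086 and 4676) than the normal libraries (2877 and 2207), at 8813870 and 6305121 reads against 10455643 and 7517482. Of 10 Leydig cell markers only the lipoprotein receptor Scarb1 had a row, with 458 and 150 reads in normal and 1677 and 331 in BPA cells, so the other 9 are not analysed here. Markers of Sertoli cells (4 of 6 with a row) summed to 1784 and 2412 reads in normal and 2412 and 721 in BPA cells. Markers of macrophages (2 of 5) summed to 126 and 59 against 175 and 436 reads, those of peritubular and endothelial cells (2 of 5) to 80 and 352 against 501 and 1270, and none of 6 germ cell markers had a row. Their part in the results was not tested. In such bulk libraries fewer cells in cycle and less RNA per cell cannot be told apart.

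Promoters of the list were examined first, because E2F and CCAAT elements mark many replication genes. RefSeq promoters (build GRCm38.p6) were found for 9 of the 10 genes, Mcm4 being without an entry. Both strands of the 250 bases before each start were searched for the E2F elements TTTCGCGC, TTTGGCGC, TTTCCCGC and TTTGCCGC and for CCAAT, which is bound by the factor NF-Y. A CCAAT match was found in 9 of 9 genes, against 33.85% of 32851 promoter entries of the whole table. An E2F match was found in 3 of 9, namely Mcm5, Mcm6 and Mcm7, against 1.86% of entries. The counts of the list are by gene, with a match in any entry, while the background is by entry. Mcm7 had 1 E2F match in the entry at chr5:138171834-138172133 and 0 in that at chr5:138171217-138171516. These matches describe letters in a window, not occupied sites. The stretches below are shown because they carry the matches, which are in capitals, for a pair of genes with both elements and for Rrm1, which has CCAAT alone.
Mcm5 promoter, chr8:75109349-75109508, + strand: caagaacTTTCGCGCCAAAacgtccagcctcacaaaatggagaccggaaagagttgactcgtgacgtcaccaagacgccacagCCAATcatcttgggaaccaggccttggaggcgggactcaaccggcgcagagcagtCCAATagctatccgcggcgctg
Mcm6 promoter, chr1:128359706-128359825, - strand: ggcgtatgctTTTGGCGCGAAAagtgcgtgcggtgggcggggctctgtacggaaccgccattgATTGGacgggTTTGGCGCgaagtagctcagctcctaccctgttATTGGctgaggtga
Rrm1 promoter, chr7:102441575-102441694, + strand: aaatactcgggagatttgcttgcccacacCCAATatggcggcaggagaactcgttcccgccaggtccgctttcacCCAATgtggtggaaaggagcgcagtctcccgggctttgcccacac

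In Mcm5 the E2F matches began 153 and 149 bases before the start and overlapped each other on opposite strands, with CCAAT at 77 and 22 bases. In Mcm6 the overlapping E2F matches began at 110 and 106 bases and a further one at 47, with CCAAT, on the opposite strand, at 57 and 14. In Rrm1 the CCAAT matches began at 91 and 45 bases before the start.

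For none of the 10 genes did the difference in RNA between BPA-exposed and normal cells pass the test. Rrm1 and Mcm7 were lower in both BPA libraries than in both normal libraries. The summed reads of Mcm2 to Mcm7 were nearly level, while single genes swung between libraries of the same condition. No gene of the list passed an adjusted p of 0.05 in edgeR's quasi-likelihood test, and 0.0% of all 8645 tested genes did. None of the 10 had an unadjusted p under 0.05 either, against 9.64% of all tested genes. DESeq2 called 0 of the 10, each with an adjusted p of 0.9996, and 3.05% of all tested genes.

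Of the helicase ring, Mcm3 was among the steadier genes. Its level in CPM, the reads scaled to library size and composition, was 212.5 and 310.2 in normal cells and 349.0 and 295.8 after BPA. The groups overlapped, and the log2 fold change of BPA over normal was 0.32 ± 0.58 (SE, n = 2 per group), with a 95% interval from -0.93 to 1.58 and an edgeR adjusted p of 0.871. It was 0.20 without normal replicate 1 and 0.64 without normal replicate 2. Mcm4, the subunit that together with Mcm6 and Mcm7 forms the catalytic core, had 164.5 and 175.9 CPM in normal and 166.4 and 208.0 in BPA cells. Both groups held almost the same level of Mcm4, at a log2 fold change of 0.13 ± 0.70 (edgeR adjusted p = 0.964). The interval of that difference, from -1.38 to 1.63, leaves changes of either sign within reach, and leaving out 1 library gave values from 0.01 to 0.34.

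Mcm7 was lower in both BPA libraries, at 87.9 and 42.2 CPM, than in the normal libraries, at 135.5 and 121.7. The groups did not overlap, at 129 ± 9.78 CPM in normal and 65.04 ± 32.3 in BPA cells (mean ± SD, n = 2 each). The log2 fold change was -0.91 ± 0.93 (95% interval from -2.92 to 1.09), and with an edgeR adjusted p of 0.742 it did not pass the test. Leaving out BPA replicate 1 gave -1.56, and leaving out BPA replicate 2 gave -0.52. In 2 of the 10 genes, Mcm7 and Rrm1, both BPA libraries lay below both normal ones, a pattern that 27.2% of all tested genes showed. None lay above, against 12.8% of all tested genes, and the groups did not overlap in either direction for 40.0% of all tested genes.

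Mcm2, Mcm5 and Mcm6 differed more between libraries of one condition than between conditions. Mcm2, which carries histones past the fork as well as serving in the ring, had 696 and 157 reads in normal and 693 and 147 in BPA cells (60.3 and 20.1 against 80.5 and 27.5 CPM). Replicate 1 was high in both conditions. Mcm5 had 406 and 1077 reads in normal and 1074 and 176 in BPA cells (35.2 and 138.1 against 124.8 and 32.9 CPM), and Mcm6 had 1964 and 606 against 623 and 749 (170.2 and 77.7 against 72.4 and 140.0 CPM). Mcm5 was high in normal replicate 2 and BPA replicate 1, the libraries in which Mcm6 was low. The log2 fold changes were 0.44 ± 1.21 for Mcm2, 0.07 ± 1.07 for Mcm5 and -0.33 ± 0.89 for Mcm6, with edgeR adjusted p of 0.916, 0.987 and 0.915. The sign of all 3 turned when 1 library was left out: from -0.60 to 1.68 for Mcm2, from -1.25 to 1.31 for Mcm5 and from -0.78 to 0.51 for Mcm6.

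**Figure D1:**
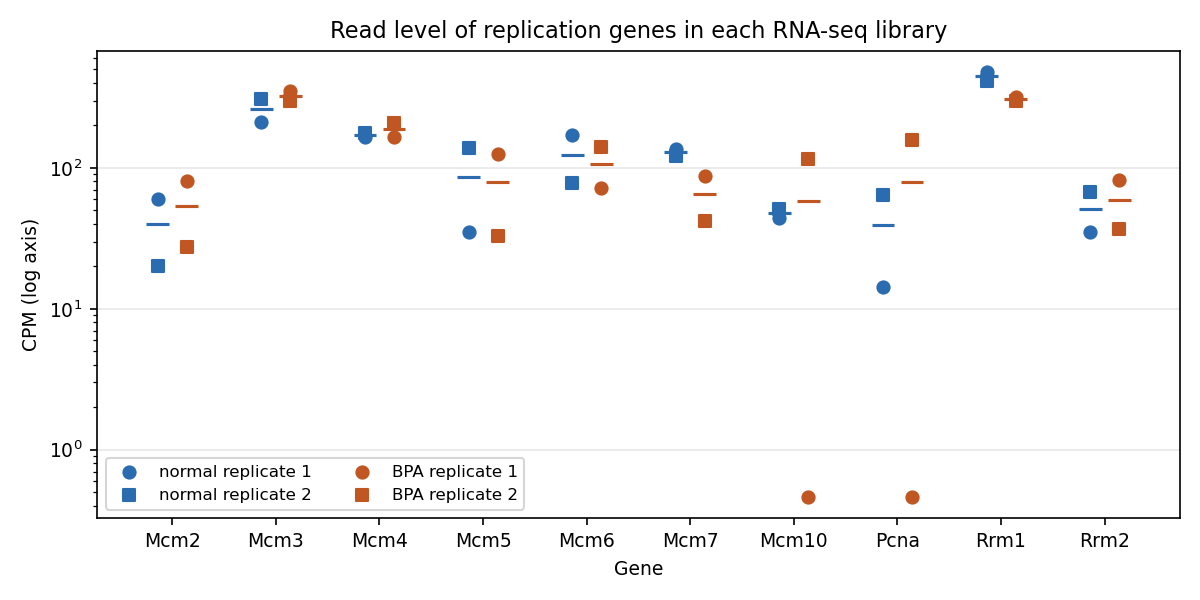
Level of each of the 10 genes in each RNA-seq library, in CPM on a log axis, with 1 point per library. Rrm1 and Mcm7 have both BPA points below both normal points, and Mcm10 and Pcna have 1 BPA library at 0.465 CPM and the other above 100.

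Because the ring holds its subunits in equal number, the make-up of the Mcm2 to Mcm7 reads was compared across libraries. The 6 genes together had 8980 and 6580 reads in normal and 7581 and 3994 in BPA cells, or 778 and 844 against 881 and 746 CPM. The means were 811 ± 46.3 in normal and 814 ± 95.2 CPM in BPA cells (SD, n = 2 each), which differ by less than either SD. Read shares are not scaled to transcript length, so each share is compared across libraries and not between genes.

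Mcm7 gave 17.4% (95% Wilson interval 16.7 to 18.2) and 14.4% (13.6 to 15.3) of these reads in normal cells and 9.97% (9.32 to 10.7) and 5.66% (4.98 to 6.42) in BPA cells, so that its share was lower in both BPA libraries. Mcm5 gave 4.52% and 16.4% in normal and 14.2% and 4.41% in BPA cells. Mcm6 gave 21.9% and 9.21% in normal and 8.22% and 18.8% in BPA cells, high where Mcm5 was low. Mcm2 ranged from 2.39% to 9.14%, with replicate 1 high in both conditions. Mcm4 ranged from 18.9% to 27.9%. Mcm3 gave 27.3% and 36.8% in normal and 39.6% in each BPA library, so that its share was higher in both BPA libraries. The shares of a library sum to a fixed whole, so the share of a gene is not independent of the others. For Mcm2, Mcm5, Mcm6 and Mcm7 the intervals of the paired libraries did not overlap in either condition. These intervals hold counting error alone, because each comes from the reads of 1 library, and any PCR copies left among the reads count again.

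**Figure D2:**
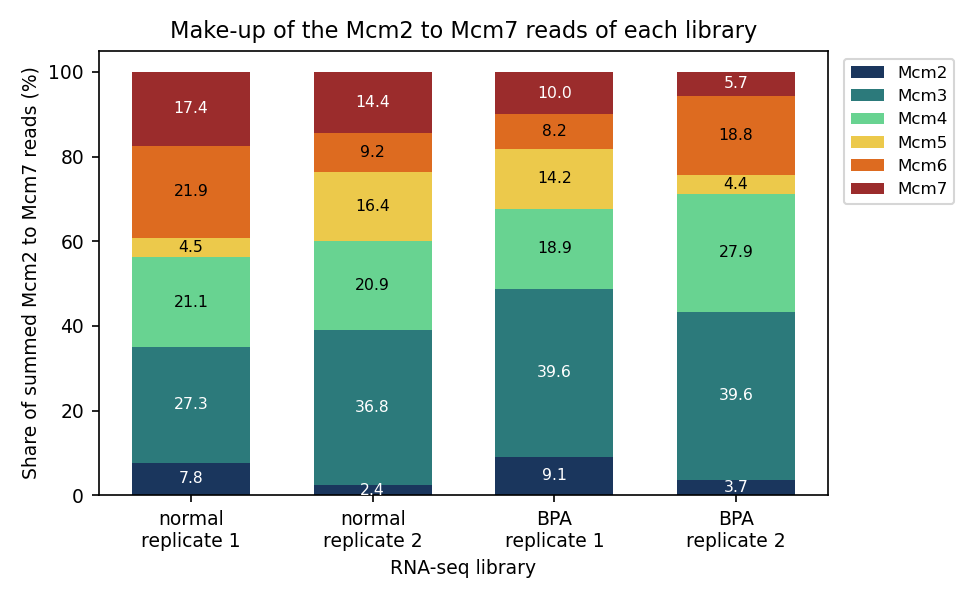
Stacked shares, in percent, of the summed Mcm2 to Mcm7 reads in each RNA-seq library, with 1 bar per library and 1 colour per gene. The Mcm7 band is 17.4% and 14.4% in the normal bars and 9.97% and 5.66% in the BPA bars. The Mcm3 band is 27.3% and 36.8% in the normal bars and 39.6% in each BPA bar. In each condition the bar with the wide Mcm5 band has the narrow Mcm6 band.

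Mcm10 and Pcna were near-absent from 1 BPA library and abundant in the other. Mcm10 had 510 and 396 reads in normal and 4 and 623 in BPA cells (44.2 and 50.8 against 0.465 and 116.4 CPM). Pcna had 164 and 502 reads in normal and 4 and 848 in BPA cells (14.2 and 64.4 against 0.465 and 158.5 CPM). In both genes BPA replicate 1 was the low library, below every normal library, and BPA replicate 2 was above them. The ratio between the BPA libraries was 250.5 for Mcm10 and 341.0 for Pcna, whereas the normal libraries differed by 1.15 and 4.53 times.

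The fitted changes of both genes rest on single libraries. The log2 fold change of Mcm10 was 0.05 ± 1.41 and ranged from -6.58 to 1.36 as each library was left out, the lowest value being that without BPA replicate 2. For Pcna it was 0.91 ± 1.49 and ranged from -6.18, also without BPA replicate 2, to 2.26, with edgeR adjusted p of 0.992 and 0.856 for the 2 genes over all 4 libraries. A split of this kind, with at most 10 reads in 1 library and at least 100 in the other, was found in BPA cells for 2 of the 10 genes and for 31.2% of all tested genes. In normal cells it was found for none of the 10 and for 8.12% of all tested genes.

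The mouse genome holds pseudogene copies of Pcna, and whether reads passed between their rows was not tested. Pcna-ps2 had a row of its own, with 275 and 121 reads in normal and 698 and 7 in BPA cells, and Pcna-ps1 is not analysed here. Pcna-ps2 was high in BPA replicate 1, where Pcna had 4 reads, and low in BPA replicate 2, where Pcna had 848. Summed, the copies had 439 and 623 reads in normal and 702 and 855 in BPA cells, or 38.04 and 79.9 against 81.6 and 159.8 CPM. The ratio between the BPA libraries was then 1.96 in place of 341.0. With the rows summed, a step chosen after the values were seen, the log2 fold change was 1.04 ± 1.00 (95% interval from -1.12 to 3.20) and the edgeR adjusted p was 0.724. Both BPA libraries then lay above both normal libraries, and the difference still did not pass the test. The sources used here do not say how the authors counted reads that match several places.

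Rrm1, the large subunit of ribonucleotide reductase that holds its catalytic and allosteric sites, was the steadiest of the 10 genes between replicates in BPA cells. It had 5523 and 3244 reads in normal and 2718 and 1605 in BPA cells, or 478.6 and 416.0 against 315.8 and 300.0 CPM. Both BPA libraries were below both normal libraries, at 308 ± 11.2 against 447 ± 44.3 CPM (SD, n = 2 each). The log2 fold change was -0.54 ± 0.53, with a 95% interval from -1.68 to 0.60 and an edgeR adjusted p of 0.729, and it was -0.30 without normal replicate 1. Rrm2, the small subunit, whose level normally rises in S phase, had 404 and 525 reads in normal and 708 and 197 in BPA cells (35.0 and 67.3 against 82.3 and 36.8 CPM). The Rrm2 groups overlapped, at a log2 fold change of 0.36 ± 1.16 (edgeR adjusted p = 0.930) that turned to -0.36 without BPA replicate 1.

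Over the list, 7 log2 fold changes were positive and 3 negative, with a median of 0.10, beside 49.5% positive and a median of -0.02 over all tested genes. The larger replicate difference exceeded the group difference in 8 of 10 genes, against 71.0% of all tested genes. The summed reads of all 10 were 1350 and 1442 CPM in normal and 1280 and 1358 CPM in BPA cells, a difference of means within the replicate range of either group. Mcm3, Mcm7 and Rrm1 kept their sign under every setting tried, and the other 7 turned it under at least 1.

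**Figure D3:**
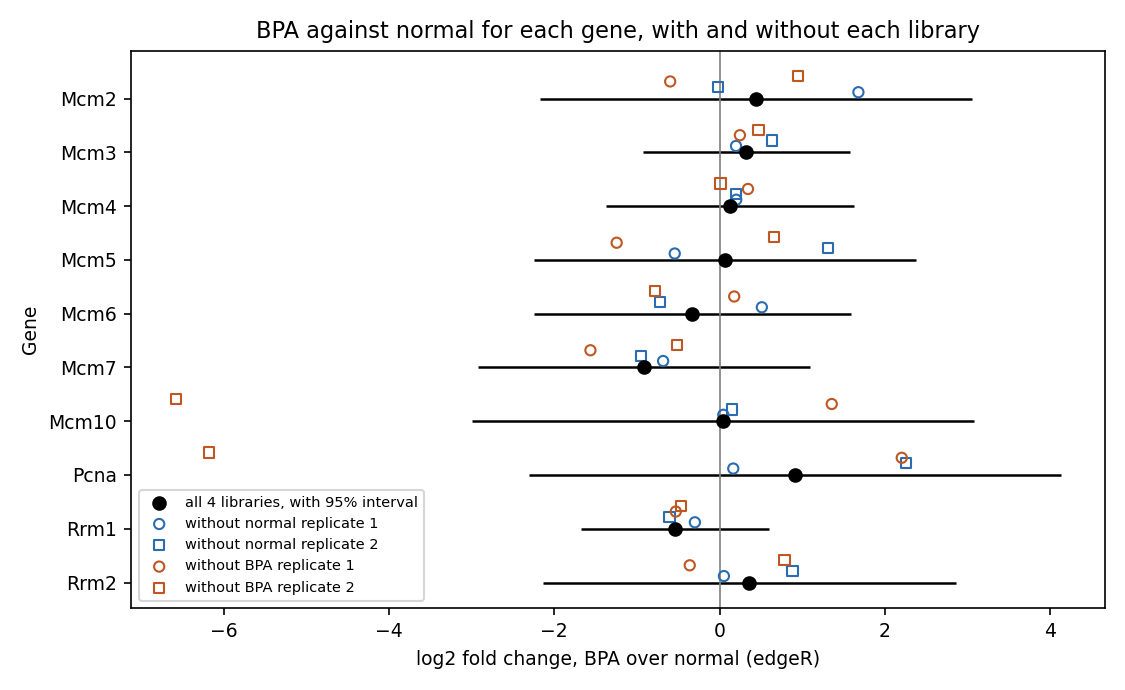
Log2 fold change of BPA over normal (edgeR) for each gene, with filled points for the fit of all 4 libraries, bars for the 95% interval, and open points for fits that leave out 1 library. Every interval includes 0, and the open points of Mcm10 and Pcna reach -6.58 and -6.18 without BPA replicate 2.

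The rest of the replication machinery was read from 98 further genes in 7 lists by role, of which 96 had a row and 87 were tested. Of these 48 had a positive and 39 a negative log2 fold change, with a median of 0.05, and none was called by edgeR. At an unadjusted p under 0.05, 4 were higher and 7 lower in BPA cells (backgrounds 2.41% and 7.23%). DESeq2 called 4 of the 87, beside 3.05% of all tested genes, with Tfdp1 higher (adjusted p = 0.0438) and Nme1, Cdk2 and Ccne1 lower (0.000709, 0.0299 and 0.0363). In 9 of the 87, or 10.3%, both BPA libraries held at most 10 reads and both normal libraries at least 100, as did 8.84% of all tested genes. The reverse was seen for none of the 87 and for 0.185% of all tested genes. All edgeR adjusted p of the genes named below were at or above 0.372.

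In origin licensing, the step that puts the MCM ring on DNA, 8 of 12 tested genes had a positive and 4 a negative change, with a median of 0.54. Cdc6, which loads the ring together with Cdt1 and the origin recognition complex, had 445 and 438 reads in normal and 6 and 4 in BPA cells, an absence shared by both BPA libraries. Orc2, a subunit of the origin recognition complex, had 907 and 889 against 585 and 1753 reads, so that the groups overlapped. Mcm8, which pairs with Mcm9 in a complex apart from the ring, had 97 and 56 reads in normal and 0 in both BPA libraries. Scaled to total reads, the BPA level was at least 42.9-fold lower against a floor of 3 reads over the group (counting error only).

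In helicase activation and fork protection, 9 of 15 tested genes had a positive and 6 a negative change, with a median of 0.23. Mtbp, a partner of Treslin in firing origins, had 659 and 421 reads in normal and 8 and 1 in BPA cells. Donson, a fork protein that helps deliver GINS, showed the opposite order, with 0 and 106 reads in normal and 550 and 563 in BPA cells. Topbp1, a scaffold of origin firing and of the checkpoint, had 1585 and 974 against 1897 and 902 reads and was higher in CPM in both BPA libraries. Dbf4, the activator of the Cdc7 kinase that phosphorylates the MCM ring, had 2170 and 1488 against 924 and 2656 reads, and the checkpoint mediator Clspn had 1766 and 587 against 1269 and 1309. Neither Dbf4 nor Clspn separated the groups.

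Among replicative polymerases, 5 of 9 tested genes had a positive and 4 a negative change, with a median of 0.04. The small accessory subunits of polymerase epsilon went in opposite directions at an unadjusted p under 0.05. Pole3 had 2335 and 744 reads in normal and 12 and 238 in BPA cells, a log2 fold change of -3.04 ± 1.30 that became -6.73 on leaving out BPA replicate 2 and -1.73 on leaving out BPA replicate 1. Pole4 had 1041 and 913 against 1676 and 2361 reads, a log2 fold change of 1.60 ± 0.72 that was 0.97 without BPA replicate 2.

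For clamp loading and the lagging strand, 9 of 15 tested genes had a positive and 6 a negative change, with a median of 0.13. Rpa3, the smallest subunit of the single-strand binding protein, had 183 and 299 reads in normal and 0 in both BPA libraries, at least 135-fold lower (counting error only). The groups overlapped for the other genes named here. The clamp loader subunit Rfc1 had 1606 and 1263 against 1135 and 1484 reads, and Atad5, which unloads Pcna, had 996 and 481 against 729 and 2449. DNA ligase Lig1 had 2171 and 1078 against 1198 and 1207 reads. Topoisomerase Top1 had 5684 and 2454 against 3704 and 7593 reads, and Top2a 9944 and 5770 against 7552 and 3093. Lig1 and Top2a, with log2 fold changes of 0.11 and -0.13, changed sign under other settings, Top2a with DESeq2 scaling.

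For deoxynucleotide supply apart from Rrm1 and Rrm2, 6 of 11 tested genes had a positive and 5 a negative change, with a median of 0.04. Nme1, a nucleoside diphosphate kinase, had 1315 and 663 reads in normal and 4 and 1 in BPA cells. The ratio of pooled reads, scaled to total reads, was 0.00301 (95% interval 0.000975 to 0.00702, counting error only). The deoxynucleoside kinase Dck had 3169 and 3506 against 1313 and 1889 reads. Samhd1, which degrades deoxynucleotides, had 754 and 1218 against 2158 and 835 reads. The groups overlapped in CPM for both.

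The E2F and RB list had 6 positive and 11 negative changes among 17 tested genes, with a median of -0.44. It also held 4 of the 9 genes that were near-absent from both BPA libraries. These 4 were 23.5% of its 17 tested genes, against 8.84% of all tested genes. Rb1 had 145 and 108 reads in normal and 0 in both BPA libraries, at least 70.9-fold lower (counting error only). The G1 cyclins Ccne1 (202 and 471 reads) and Ccne2 (235 and 136) were also at 0 in both BPA libraries, at least 189-fold and 104-fold lower (counting error only). Their kinase Cdk2 had 477 and 444 against 0 and 1. The activator E2f3 had 785 and 521 reads in normal and 1783 and 1311 in BPA cells, a log2 fold change of 1.73 ± 0.79.

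Tfdp1, the dimer partner of the E2F factors, had 2020 and 2923 reads in normal and 7366 and 4422 in BPA cells, a log2 fold change of 1.64 ± 0.52 (edgeR unadjusted p = 0.00746, adjusted p = 0.372). Both E2f3 and Tfdp1 were higher in both BPA libraries. Cyclin A (Ccna2) had 1582 and 1034 against 682 and 1076 reads, Cdk4 3221 and 1832 against 2920 and 819, and Cdk6 794 and 1392 against 2041 and 944. The groups overlapped for these 3, and the signs of Ccna2 and Cdk4 changed with DESeq2 scaling.

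In replication-coupled chromatin, 5 of 8 tested genes had a positive and 3 a negative change, with a median of 0.33. The histone chaperone Asf1a had 406 and 373 reads in normal and 5 and 1 in BPA cells. The chaperone Nasp had 11747 and 8625 against 12716 and 9971 reads and was higher in CPM in both BPA libraries, with a log2 fold change of 0.65 ± 0.37. The remodeller Hells had 3978 and 1957 against 5591 and 2578 reads, also higher in both, at 0.92 ± 0.52. Uhrf1, which brings the maintenance methyltransferase to new DNA, had 1723 and 1374 against 2023 and 399 reads and overlapped, at 0.01 ± 0.77 with a sign that changed under other settings.

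**Figure D4:**
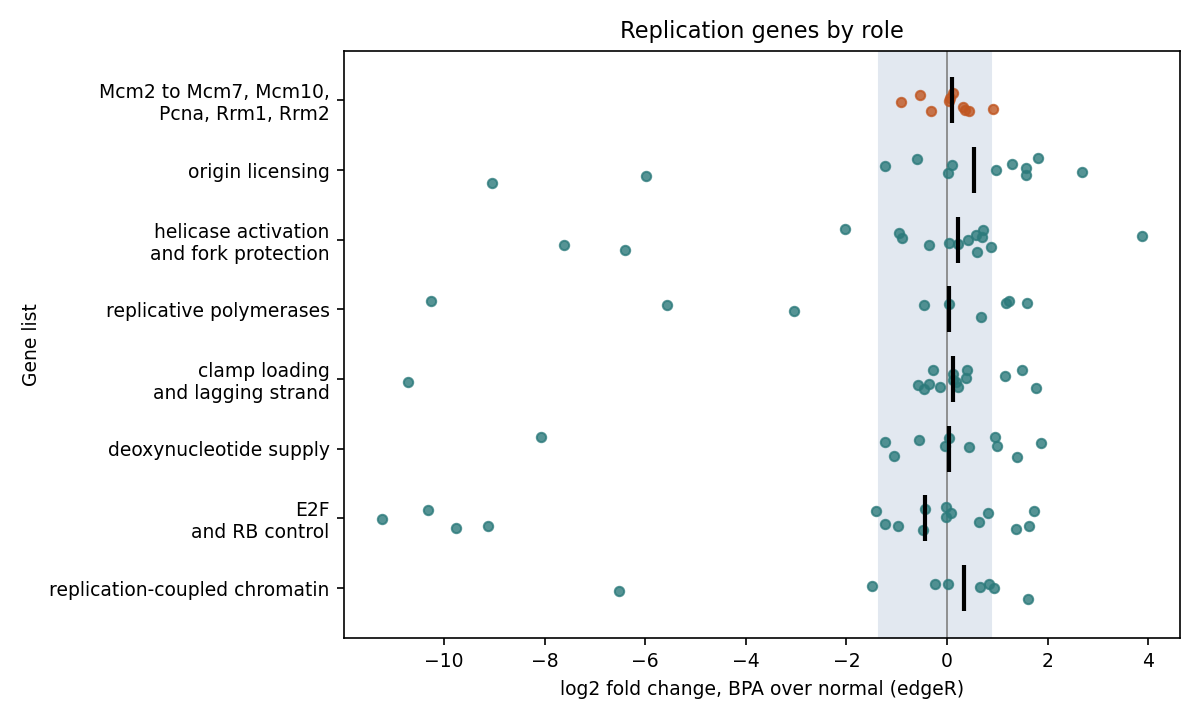
Log2 fold change of BPA over normal (edgeR) for each tested gene of the 10 described genes and of the 7 further lists, with 1 point per gene, a black bar at each list median and a shaded band from -1.35 to 0.87 for the middle range (lower to upper quartile) of all tested genes. The E2F and RB list has the lowest median, at -0.44, and each list has points on both sides of 0.

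The authors' table of m6A peaks, a list of regions with a difference in IP over input, held 7 peaks in 5 of the 10 genes (Mcm2, Mcm4, Mcm5, Mcm7 and Pcna). Of all tested genes 23.6% had a peak there. The authors' deposited table gives 1 pooled value per condition for IP and for input, so no spread between libraries can be given. By the authors' deposited log2 fold change 3 of the 7 peaks were positive and 4 negative, beside 68.8% positive among all 3331 peaks. Coordinates were read as mouse build GRCm39, and exon, intron and UTR positions are not analysed here. The RPM of each column were scaled to a total of 5402183 (normal IP), 1703692 (normal input), 3908372 (BPA IP) or 818212 reads (BPA input). The input totals are far below the read totals of the RNA-seq libraries, and what they count is not stated, so RPM and CPM are not on the same scale. Where every column had at least 100 reads (1016 peaks), the authors' deposited log2 fold change was larger by a constant 0.78 than the change of IP over input computed from the table's RPM.

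The Mcm4 peak (chr16:15442336-15443427, in 2 blocks) was close to level, with IP of 669.91 RPM in normal and 821.06 in BPA cells and input of 753.66 and 853.08. Its IP and input changes were 0.29 and 0.18 on the log2 scale after adding 1 RPM, and the authors' deposited table gives 0.89. Mcm5 had a pair of peaks of opposite sign. At the first (chr8:75839287-75839311) IP was 59.42 RPM in normal and 232.83 in BPA cells, while input went from 21.13 to 378.87, and the authors' deposited log2 fold change was -1.42. At the second (chr8:75847881-75848265) IP was 35.36 against 182.17 RPM and input 120.91 against 215.1, at 2.31 in the authors' deposited table. IP was thus higher in BPA cells at both Mcm5 peaks, and the signs differed by the input beneath them.

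The Mcm2 peaks were lower in the IP of BPA cells. The first (chr6:88864809-88864833) had IP of 128.65 RPM, or 695 reads, in normal and 0.26 RPM, or 1 read, in BPA cells, a ratio of 0.00199 (95% interval 5.03e-05 to 0.0111, counting error only), and input at 0 in both. The authors' deposited table gives -9.30 for it. At the second (chr6:88869978-88870077) IP was 182.52 against 46.57 RPM and input 66.91 against 111.22, with -1.93 in the authors' deposited table. The Mcm2 RNA reads showed no such order, at 696 and 157 in normal and 693 and 147 in BPA cells.

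The Mcm7 peak (chr5:138167950-138167974) had IP of 266.74 RPM, or 1441 reads, in normal and 0 in BPA cells, at least 347.5-fold lower against a floor of 3 reads (counting error only). Its input was lower too, at 75 reads in normal and 2 in BPA cells, a ratio of RPM of 0.0555 (0.0066 to 0.208, counting error only). The authors' deposited log2 fold change was -6.52. A pooled column with 10 or fewer reads, as at this peak and the first Mcm2 peak, was found in 59.11% of all peaks. The Pcna peak (chr2:132092085-132093282, in 2 blocks) had the highest positive value of the 7 in the authors' deposited table, at 4.21 with a false discovery rate of 2.39e-133. Its IP was level, at 516.09 RPM in normal and 522.21 in BPA cells, while its input was 1040.68 RPM (1773 reads) against 97.77 (80 reads), 10.64-fold lower. Input at the Pcna peak was lower in BPA cells, whereas Pcna in the count table had no such order. Its CPM was 14.2 and 64.4 in normal and 0.465 and 158.5 in BPA cells. The Pcna row held 164 and 502 reads in normal, together fewer than the 1773 input reads at the peak, so the measures are not alike. Among the 7 peaks, input changed by more than IP at the first Mcm5 peak and at the Pcna peak, and by less at the others. Over all peaks, input changed by more than IP in 62.5%.

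**Figure D5:**
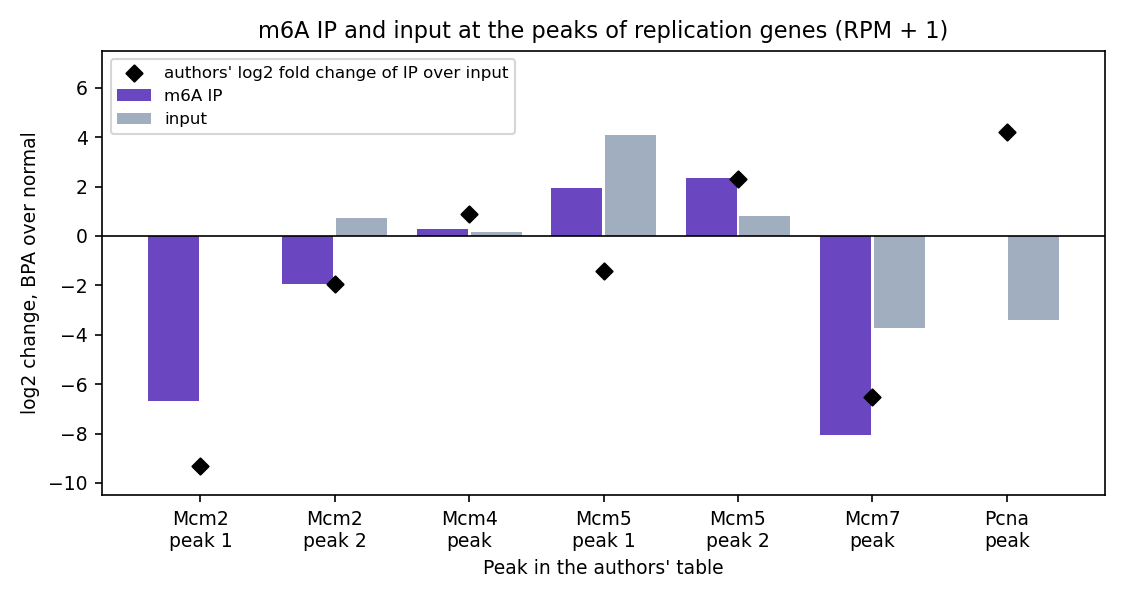
Log2 change of BPA over normal in IP (purple bars) and input (grey bars) at the 7 peaks, computed from the authors' pooled RPM after adding 1 RPM, and the authors' log2 fold change of IP over input (diamonds). The Pcna peak has an IP change of 0.02 and an input change of -3.40, while at the first Mcm2 peak the IP change is -6.69 with input at 0.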

How the data were processed

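Whole read counts per Ensembl mouse gene were deposited by the authors for 4 libraries named by condition and number alone. Their names carry no assay, and they were read as RNA-seq. The submitters' processing notes name DESeq2 1.38.3, featureCounts 2.0.1, HISAT2 2.2.1 and fastp 0.20.1, beside the builds GRCh38 and GRCm39 with no role. The sources used here do not give the strand setting, the treatment of multi-mapping reads or the peak caller. For each peak the authors deposited pooled RPM of IP and input, a log2 fold change, a p-value, a false discovery rate and a score, the last being the −log10 of the p-value in the authors' table and not used further. RPM values were whole multiples of 1 step per column within 0.1 read in 100% of peaks, and read numbers of peaks come from that step.

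Counts were tested over 8645 genes with edgeR 4.0.16 in R 4.3.3 (TMM, filterByExpr at minimum count 10 and minimum total 15, robust quasi-likelihood F test, Benjamini-Hochberg at 0.05), using the 4 RNA-seq libraries and no covariate. CPM used TMM-scaled totals of the tested genes. DESeq2 1.42.0 was an alternative. The code of the test was run on simulated counts that were not made to hold the splits between replicates seen here. Its error rate in these data was therefore not measured. For genes at 0 in both libraries of a condition, folds use a floor of 3 counts for that condition. These folds and the pooled Nme1 ratio are scaled to total reads without TMM factors. They hold counting error only and not the spread between libraries. The total counts ranged from 6305121 to 10455643 per library. Peak starts are 1-based. The build of the peaks was read as GRCm39 because only 1 of the 7 lay inside its gene's GRCm38.p6 span. Besides the 10 genes, named genes were other replication genes that averaged 1000 reads or more, with at most 10 reads in both libraries of one condition and at least 100 in both of the other, or with an unadjusted edgeR p under 0.05. The members and lists were chosen with earlier results of these data known.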

Additional observations from a re-analysis of the deposited data

How the results depend on the processing

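The number of genes called was 0 with edgeR (833 at an unadjusted p under 0.05), 264 with DESeq2, of which 45 were higher and 219 lower, and 0 to 1 as each library was left out, the 1 being without normal replicate 1. Other replication genes called numbered 0 with edgeR and 4 with DESeq2. DESeq2 size factors moved the median of all tested genes from -0.02 to 0.12 and the genes at an unadjusted p under 0.05 from 208 higher and 625 lower to 328 and 429. That split was 397 and 193 with no filter on low counts and 52 and 25 in a fit of genes with at least 1000 reads alone. The median of the 10 genes was 0.0968 and ranged from -0.227 to 0.176 as libraries were left out, turning negative without BPA replicate 2 (-0.227) and without BPA replicate 1 (-0.0913). It was also negative, at -0.1465, over the 3 of the 10 in the fit of genes with at least 1000 reads alone.

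The labels do not say whether replicate numbers pair the libraries. The replicate differences of the 2 conditions had a correlation of 0.00409, which cannot decide this, because libraries made in pairs need not share such differences. With the replicate block 0 genes were called, the unadjusted p under 0.05 numbering 164 higher and 52 lower, and with the numbers crossed, chosen after seeing the data, 113 and 68. With the block Mcm10 was at -0.1938 and Uhrf1 at -0.07934, and with the numbers crossed Mcm10 was at -0.008847, Mcm5 at -0.1323 and Uhrf1 at -0.1596. The fit of genes with at least 1000 reads gave -0.1465 for Mcm4, -0.1606 for Lig1 and -0.265 for Uhrf1. DESeq2 and its size factors in edgeR gave 0.003275 and 0.01124 for Top2a, 0.1825 and 0.1127 for Ccna2 and 0.08306 and 0.1172 for Cdk4, and no filter on low counts gave 0.04891 for Ccna2 and 0.04285 for Cdk4. In all of these the sign was the reverse of the reported one, and the cause was not tested.

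Leaving out 1 library gave ranges across 0 for Mcm2 (-0.597 to 1.681), Mcm5 (-1.245 to 1.314), Mcm6 (-0.782 to 0.5125), Mcm10 (-6.581 to 1.358), Pcna (-6.182 to 2.257) and Rrm2 (-0.3603 to 0.8836). The same held for Orc2 (-0.4345 to 1.846), Dbf4 (-0.7778 to 1.442), Rfc1 (-0.1418 to 0.9417), Lig1 (-0.2055 to 0.5007), Top2a (-0.4217 to 0.17), Dck (-1.19 to 0.03177), Ccna2 (-0.7283 to 0.6256), Cdk4 (-0.704 to 0.4341) and Uhrf1 (-1.065 to 0.5801). In these fits the lone library of a condition is assumed to vary like the other pair. A false discovery rate of at most 0.01 kept 7 of 7 peaks, as it did 99.04% of all peaks in the table, whose largest rate is 0.01472, and adding 0.5 in place of 1 RPM reversed no peak. With 2 libraries per condition the intervals of all described genes but Mcm3 and Rrm1 reach beyond a log2 change of 1 in both directions. For those genes a change of that size was left within reach in either direction. Far larger differences did not pass the edgeR test either. Cds2, a gene next to Pcna, had a log2 fold change of -12.29 with an edgeR adjusted p of 0.372.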

Other observations

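Genes beside the replication genes, by RefSeq order, were read for their own levels. Cds2, an enzyme of phospholipid synthesis next to Pcna, had 462 and 928 reads in normal and 0 in both BPA libraries (edgeR adjusted p = 0.372), while Tmem230, on the other side of Pcna, had 698 and 126 against 299 and 2. Cops6, a subunit of the COP9 signalosome next to Mcm7, had 480 and 91 reads in normal and 6 and 588 in BPA cells. Ap4m1, which overlaps Mcm7, had 126 reads in normal replicate 2 and 0 in the other 3 libraries, and the miRNA genes Mir25, Mir93 and Mir106b inside Mcm7 had no row. Prkdc, the DNA-dependent protein kinase next to Mcm4, had 749 and 152 against 424 and 151 reads.

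Among 181 genes paired by name with a pseudogene copy in the table, 4 had both rows split between the BPA libraries, with at most 10 reads in one and at least 100 in the other. In 3 of them, Pcna, Impdh2 and Dnajc19, the gene and its copy were high in opposite libraries, and in 1, Gpx4, in the same library. These 4 were chosen after their values were seen.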
